A study of Mus musculus with 12 samples.

Results

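The genes described here are 10 Wnt/beta-catenin target and pericentral genes of mouse liver: Glul, Rhbg, Slc1a2, Oat, Axin2, Lgr5, Rnf43, Znrf3, Notum and Tbx3. They were taken by name from the 53715 genes with deposited raw counts, and all 10 were found and passed the filter on low counts, as did 17779 genes in all. RNA was sequenced from 12 libraries of the mouse strain C57BL/6JOlaHsd, 4 biological replicates in each of 3 groups. Hepatoblasts were cells of E14.5 embryonic livers, selected with magnetic beads for the surface marker Dlk1 and lysed at once, each isolation pooling many embryos. Diff. hepatocytes were hepatoblasts of the same age, isolated in the same way, that had then been cultured on fibronectin-coated plates (for 4 days by the series description) in a medium with serum, insulin, dexamethasone and Matrigel, where they differentiate. Mature hepatocytes were obtained by collagenase perfusion of adult male livers at 8 to 12 weeks of age, and were lysed without culture. The labels name no transgene or engineered allele in any group. Embryonic and adult cells differed in age and isolation method as well as in stage, and these cannot be told apart. Diff. hepatocytes were also the only cultured group. Their differentiation cannot be told apart from time in culture, medium and coating, or from the lack of a fresh isolation. The adult cells were all from males and no sex is given for the pooled embryos, so sex cannot be set apart either. The groups were compared to ask how far the cultured cells had moved from hepatoblasts towards mature hepatocytes.

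The liver lobule is divided into zones along the path of blood from the portal vein to the central vein. Wnt ligands and R-spondins made by endothelial cells of the central vein stabilise beta-catenin in the hepatocytes next to them, and beta-catenin with TCF/LEF factors then switches on the pericentral genes. Glutamine synthetase, encoded by Glul, marks the last rows of hepatocytes around the vein, whereas urea cycle and gluconeogenic enzymes are highest at the portal side. Several targets feed back on the pathway: Axin2 is part of the complex that degrades beta-catenin, Rnf43 and Znrf3 remove Wnt receptors from the cell surface, Notum inactivates secreted Wnt proteins, and Lgr5 is a receptor for R-spondins.

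In Diff. hepatocytes 7 of the 10 members fell relative to hepatoblasts and none rose, and under scaling by library totals Glul was called lower as well (8 of 10). The called members were Lgr5, Rhbg, Notum, Axin2, Rnf43, Tbx3 and Znrf3, from -6.97 to -1.15 on the log2 scale. A gene was called at an edgeR adjusted p under 0.01 with a log2 fold change beyond 1 in either direction, and 14.0% of all tested genes were called lower in this comparison. Relative to mature hepatocytes, 9 of 10 members were lower in Diff. hepatocytes, Znrf3 being the exception, where 15.6% of all tested genes were called lower. Mature hepatocytes against hepatoblasts gave 3 members that rose (Slc1a2, Oat and Notum) and 1 that fell (Rhbg), 4 of 10 called (3 rose and 3 fell under library totals) where 44.8% of all tested genes were called, 20.1% higher and 24.7% lower. The median log2 fold change of the members was -2.98 for Diff. hepatocytes against hepatoblasts, 0.41 for mature hepatocytes against hepatoblasts and -3.88 for Diff. against mature hepatocytes. Over all tested genes these medians were -0.01, -0.15 and 0.09. Under library totals 5606 (Diff. against hepatoblasts) and 9927 (mature against hepatoblasts) of the 17779 tested genes were called. Of those calls 35.4% and 20.2% were higher in the first group.

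**Figure D1:**
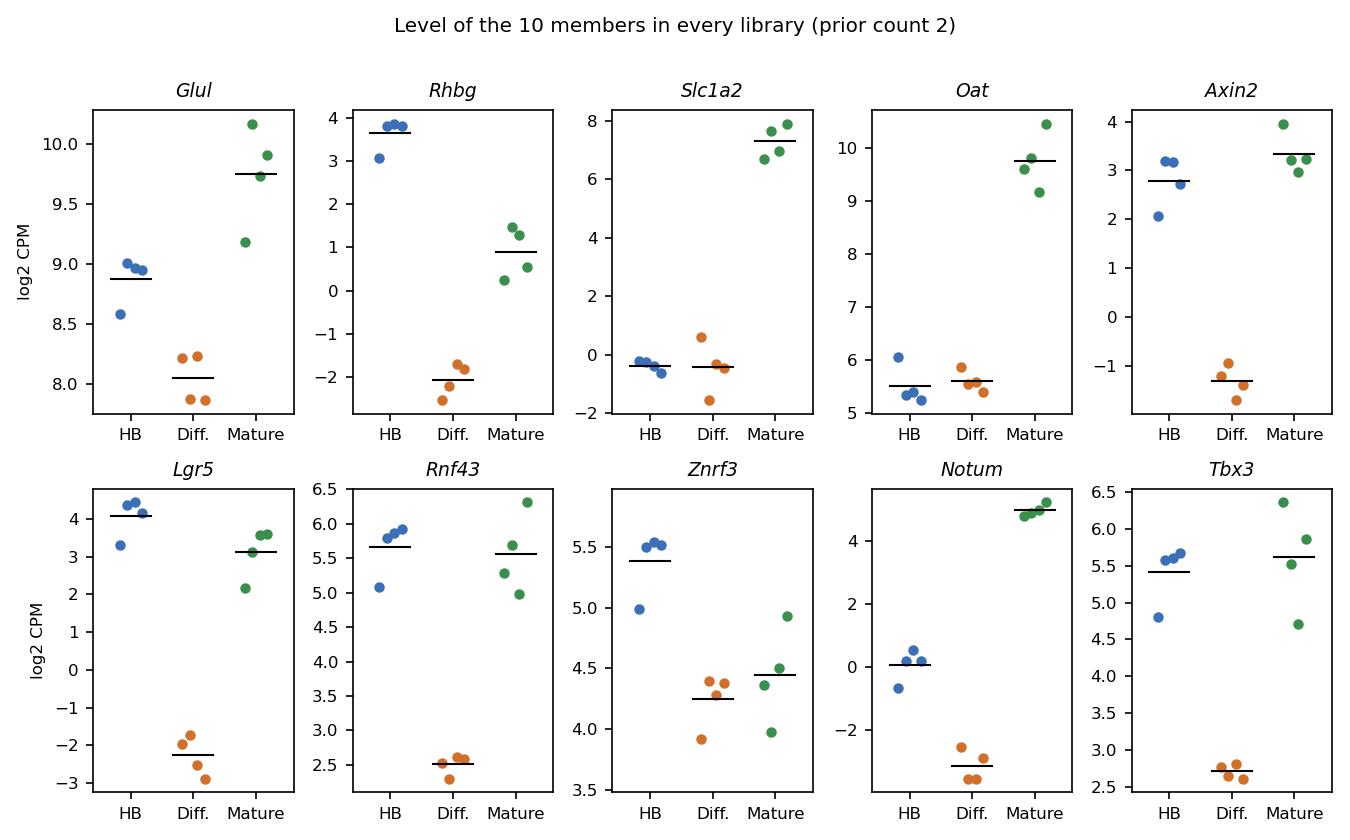
Level of each member as log2 CPM (prior count 2) in each library, with hepatoblasts (HB), Diff. hepatocytes (Diff.) and mature hepatocytes along the x axis, points for the 4 libraries of a group and a line at their mean; each panel has its own y axis. The Diff. hepatocytes lie below all hepatoblast libraries for 8 genes, while for Slc1a2 and Oat those groups overlap and mature hepatocytes stand alone at the top. Hepatoblasts and Diff. hepatocytes did not overlap, in either direction, for 57.5% of all tested genes.

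Libraries held 19581551 to 25216977 counts on genes, a depth at which 1 count in a library corresponds to 0.0299 to 0.0686 CPM. Levels are given as CPM, counts per library scaled to a common total by TMM, whose factors were 1.23 to 1.44 in hepatoblasts, with 1.03 to 1.08 in Diff. hepatocytes and 0.677 to 0.778 in mature hepatocytes. Scaling by library totals alone moved the median log2 fold change of all tested genes by -0.32 for Diff. hepatocytes against hepatoblasts, by -0.85 for mature hepatocytes against hepatoblasts and by 0.53 for Diff. against mature hepatocytes. The share of calls that were higher in the first group then went from 51.5% to 35.4%, from 44.9% to 20.2% and from 56.4% to 75.6%. In all, 5606, 9927 and 7276 of the 17779 tested genes were called under library totals. Any count given under library totals is to be set beside these. All 5 hepatocyte markers (Alb, Apoa1, Ttr, Hnf4a and Serpina1a) were detected in every group, and their summed level was 33237 to 56234 CPM in hepatoblasts, with 48546 to 56282 in Diff. hepatocytes and 102523 to 144905 in mature hepatocytes. Hepatoblasts replicate 1 held the most RNA of red blood cell precursors, with 2459 CPM over 9 erythroid markers where the lowest hepatoblast library had 297. In bulk samples fewer cells of a type and less RNA per cell cannot be told apart, so a level here may come from few pericentral cells or from many.

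Of the 10 members, 5 had a start-site window in the RefSeq promoter table of GRCm38.p6, namely Glul, Slc1a2, Oat, Rnf43 and Axin2. The 250 bases before each start were searched on both strands for the core of the TCF/LEF site, CTTTGA, or TCAAAG on the other strand, the only motif searched. Matches were found before a start of Slc1a2 that lies inside the annotated gene, beginning 206 and 77 bases upstream, and in none of the other windows of these members. Of all 32851 windows in the table, 13.8% held at least 1 match and 1.4% held 2 or more. The 2 stretches below are shown because Slc1a2 was the member highest above hepatoblasts in mature hepatocytes and had matches in its window, while Axin2, a widely used reporter of the pathway, had none there. They read 5′ to 3′ on the gene's strand, with the core in capitals, at chr2:102706188-102706355 (plus strand, ending before an annotated exon and so without the second match) and chr11:108920099-108920348 (plus strand).
Slc1a2: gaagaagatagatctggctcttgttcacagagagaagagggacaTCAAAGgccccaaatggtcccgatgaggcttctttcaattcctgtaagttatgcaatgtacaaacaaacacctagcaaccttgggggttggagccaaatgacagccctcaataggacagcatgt
Axin2: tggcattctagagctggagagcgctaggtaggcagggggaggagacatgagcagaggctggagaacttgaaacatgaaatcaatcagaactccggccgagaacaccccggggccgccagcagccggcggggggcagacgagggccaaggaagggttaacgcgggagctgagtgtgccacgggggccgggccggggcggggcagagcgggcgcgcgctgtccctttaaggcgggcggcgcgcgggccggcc
A match is only a description of these letters, and its absence says nothing of sites elsewhere in a gene.

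The members that handle ammonia and glutamine did not share 1 order of the groups. Glul (ENSMUSG00000026473, chr1:153899944-153909723, plus strand) encodes glutamine synthetase, which joins ammonia to glutamate. Its level was 381, 516, 502 and 493 CPM in hepatoblasts replicates 1 to 4, 298, 236, 299.9 and 234 CPM in Diff. hepatocytes, and 579.9, 1148, 847 and 963 CPM in mature hepatocytes. No library of any group overlapped another group, and the order was mature hepatocytes, hepatoblasts, Diff. hepatocytes. The log2 fold change of Diff. hepatocytes against hepatoblasts was -0.83 ± 0.18 (SE, edgeR adjusted p = 0.00165) and that of mature hepatocytes against hepatoblasts 0.90 ± 0.18 (adjusted p = 0.000584), both short of the fold change threshold. Under library totals the former was -1.14, which passed it (adjusted p = 0.000152), and the latter 0.07 (adjusted p = 0.747). Diff. hepatocytes were 3.32-fold lower than mature hepatocytes (log2 fold change -1.73 ± 0.19, adjusted p = 2.9e-06). Per kilobase of exon, Glul had the highest mean level of the members in hepatoblasts (142 CPM, Oat 19.7) and in Diff. hepatocytes (80.3 CPM, Oat 20.6), while in mature hepatocytes Oat was at 387 CPM and Glul at 266.

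Slc1a2 and Oat shared an order that set mature hepatocytes apart from the other 2 groups. Slc1a2 (ENSMUSG00000005089, chr2:102658659-102790784, plus strand), whose start-site stretch is printed above, encodes the glutamate transporter GLT-1. It was at 0.774, 0.746, 0.680 and 0.563 CPM in hepatoblasts, then 1.43, 0.258, 0.711 and 0.641 CPM in Diff. hepatocytes, and 103, 200.2, 126 and 241 CPM in mature hepatocytes. Hepatoblasts and Diff. hepatocytes overlapped, with a log2 fold change of 0.14 ± 0.48 (adjusted p = 0.821). It was -0.38 without Diff. hepatocytes replicate 1, the highest of its group, and -0.18 under library totals. Mature hepatocytes were 240.2-fold above hepatoblasts (7.91 ± 0.38, adjusted p = 8.21e-10) and Diff. hepatocytes 218-fold below mature hepatocytes (-7.77 ± 0.39, adjusted p = 2.15e-09). Oat (ENSMUSG00000030934, chr7:132557478-132576398, minus strand) encodes ornithine aminotransferase of the mitochondria, which converts ornithine towards glutamate. Its level was 66.2, 40.0, 41.7 and 38.1 CPM in hepatoblasts, then 58.1, 46.8, 47.8 and 41.8 CPM in Diff. hepatocytes, and 777, 893, 578 and 1407 CPM in mature hepatocytes. Every mature library stood above all the others, and the other 2 groups overlapped. Mature hepatocytes were 19.7-fold above hepatoblasts (4.30 ± 0.28, adjusted p = 1.22e-08), whereas Diff. hepatocytes differed from hepatoblasts by 0.07 ± 0.25 (adjusted p = 0.835), a value whose sign changed under library totals (-0.28).

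Rhbg was the only member called lower in mature hepatocytes than in hepatoblasts, although under library totals Lgr5 and Znrf3 were called as well. Rhbg (ENSMUSG00000104445, chr3:88242874-88254709, minus strand) encodes an ammonium transporter of the Rhesus family. It was at 8.32, 14.0, 14.51 and 13.9 CPM in hepatoblasts, then 0.0865, 0.129, 0.222 and 0.197 CPM in Diff. hepatocytes, and 1.10, 2.70, 2.33 and 1.37 CPM in mature hepatocytes. The 3 groups did not overlap. Diff. hepatocytes were 77.9-fold below hepatoblasts (-6.28 ± 0.38, adjusted p = 1.85e-08) and 11.6-fold below mature hepatocytes (-3.53 ± 0.40, adjusted p = 4.16e-06), and mature hepatocytes were 6.73-fold below hepatoblasts (-2.75 ± 0.29, adjusted p = 1.41e-06). Of the exon bases of Rhbg, 61.4% are shared on the same strand with Gm38392, so reads there may have been counted for neither gene, and the level of Rhbg is uncertain. Gm38392 itself had 0 to 4 counts in any library.

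Glutamine and ornithine metabolism beyond the members did not move in 1 direction. Of 18 listed genes 17 were tested, and 2 rose and 5 fell in Diff. hepatocytes against hepatoblasts, 5 rose and 7 fell in mature hepatocytes against hepatoblasts, and 6 were higher and 7 lower in Diff. than in mature hepatocytes. Of all tested genes 14.9% rose and 14.0% fell in the first comparison, 20.1% and 24.7% in the second, and 20.2% were higher and 15.6% lower in the third. The third gave 8 higher and 6 lower under library totals, and mature hepatocytes against hepatoblasts 5 and 10. Slc38a3, a glutamine transporter, was at 45.3 to 89.5 CPM in hepatoblasts, with 480.2 to 642 in Diff. hepatocytes and 1868 to 3109 in mature hepatocytes, with log2 fold changes over hepatoblasts of 3.20 ± 0.23 (adjusted p = 8.3e-08) and 5.27 ± 0.25 (adjusted p = 6.81e-10). Prodh, which starts proline breakdown, had the same order, at 5.04 to 6.84, 38.7 to 52.5 and 204 to 269 CPM. Otc, the urea cycle enzyme that uses ornithine, fell in Diff. hepatocytes to 31.0 to 52.1 CPM from 103 to 166 (-1.71 ± 0.17, adjusted p = 1.61e-06) and was at 544 to 635 CPM in mature hepatocytes. Pycr1 and Aldh18a1, enzymes of proline synthesis, were called lower in mature hepatocytes than in either other group, with Aldh18a1 at 42.9 to 74.8, 38.4 to 47.2 and 1.30 to 4.61 CPM in the same group order (mature against hepatoblasts -4.54 ± 0.32, adjusted p = 2.48e-08).

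All 5 Wnt feedback and receptor members fell in Diff. hepatocytes against hepatoblasts, and 4 of the 5 were lower there than in mature hepatocytes. Of all tested genes 14.0% and 15.6% were called lower in these comparisons. Axin2 (ENSMUSG00000000142, chr11:108920349-108950783, plus strand), the scaffold of the beta-catenin destruction complex, was at 4.10, 9.02, 9.0 and 6.53 CPM in hepatoblasts, then 0.346, 0.430, 0.222 and 0.296 CPM in Diff. hepatocytes, and 15.5, 9.18, 7.76 and 9.31 CPM in mature hepatocytes. The Diff. libraries lay below all others, and the other 2 groups overlapped. Axin2 was 21.7-fold lower in Diff. hepatocytes than in hepatoblasts (-4.44 ± 0.35, adjusted p = 2.14e-07) and 31.6-fold lower than in mature hepatocytes (-4.98 ± 0.36, adjusted p = 5.52e-08). Mature hepatocytes and hepatoblasts differed by 0.54 ± 0.27 (adjusted p = 0.0846), a value that became -0.30 under library totals.

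Lgr5 (ENSMUSG00000020140, chr10:115450311-115587780, minus strand), the R-spondin receptor, was at 9.90, 20.6, 21.7 and 17.9 CPM in hepatoblasts, then 0.173, 0.215, 0.0888 and 0.0493 CPM in Diff. hepatocytes, and 4.46, 8.66, 11.8 and 12.1 CPM in mature hepatocytes. The Diff. values stand for 4, 5, 2 and 1 counts, and their libraries lay far below the rest. The fall from hepatoblasts was 125-fold (-6.97 ± 0.47, adjusted p = 4.9e-08), the difference from mature hepatocytes 66.5-fold (-6.05 ± 0.47, adjusted p = 1.28e-07). Mature hepatocytes against hepatoblasts gave -0.92 ± 0.30 (adjusted p = 0.0152), which passed both thresholds without hepatoblasts replicate 1 (-1.11, adjusted p = 0.00167).

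Rnf43 and Znrf3 encode related ubiquitin ligases, and each fell in Diff. hepatocytes against hepatoblasts. Rnf43 (ENSMUSG00000034177, chr11:87662722-87735539, plus strand) was at 33.6, 55.3, 58.6 and 60.7 CPM in hepatoblasts, then 5.66, 4.82, 6.04 and 5.92 CPM in Diff. hepatocytes, and 38.9, 51.7, 31.4 and 79.4 CPM in mature hepatocytes. It was 9.28-fold below hepatoblasts in Diff. hepatocytes (-3.21 ± 0.28, adjusted p = 5.01e-07) and 8.97-fold below mature hepatocytes (-3.17 ± 0.28, adjusted p = 4.25e-07), while mature hepatocytes and hepatoblasts overlapped (-0.05 ± 0.25, adjusted p = 0.871). Znrf3 (ENSMUSG00000041961, chr11:5276324-5444847, minus strand) was at 31.8, 45.3, 46.4 and 45.8 CPM in hepatoblasts, then 15, 21, 19.3 and 20.7 CPM in Diff. hepatocytes, and 20.4, 15.7, 22.6 and 30.5 CPM in mature hepatocytes. Hepatoblasts were above every library of the other groups, which overlapped each other. The fall in Diff. hepatocytes was 2.23-fold (-1.15 ± 0.19, adjusted p = 0.000143), and it was not called when a log2 change of 1 was itself the null of the test (adjusted p = 0.268). Mature hepatocytes stood at -0.92 ± 0.19 against hepatoblasts (adjusted p = 0.000576), short of the fold change threshold, and Diff. against mature hepatocytes at -0.23 ± 0.19 (adjusted p = 0.299). The difference between the fold changes of Rnf43 and Znrf3 was not tested.

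Notum (ENSMUSG00000042988, chr11:120653788-120661175, minus strand), the secreted enzyme that removes the lipid from Wnt proteins, was the feedback gene that rose in mature hepatocytes. It was at 0.548, 1.04, 1.36 and 1.06 CPM in hepatoblasts and 27.4, 29.6, 31.6 and 37.3 CPM in mature hepatocytes, whereas the Diff. libraries held 2, 0, 0 and 1 counts. All 3 groups were apart. Mature hepatocytes were 31.2-fold above hepatoblasts (4.96 ± 0.27, adjusted p = 2.01e-09). With 3 counts in Diff. hepatocytes, the ratio of hepatoblasts to Diff. hepatocytes was 29.8 (95% exact interval 9.97 to 147) and that of mature to Diff. hepatocytes 938 (321 to 4554), intervals that cover counting error only. The edgeR test called Notum lower in Diff. hepatocytes in both comparisons (adjusted p = 5.06e-06 and 4.82e-10). Its exons overlap the antisense gene Notumos over 29.4% of their bases, and the strand setting of the counting is not given in the sources used here, so reads of the pair cannot be told apart. Notumos had 0 counts in every Diff. library, 1 to 4 in hepatoblasts and 16 to 42 in mature hepatocytes.

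Tbx3 (ENSMUSG00000018604, chr5:119670669-119684724, plus strand) encodes a T-box repressor required for hepatoblast growth and known as a beta-catenin target in liver. Its level was 28.0, 47.6, 48.6 and 50.9 CPM in hepatoblasts, then 6.74, 6.20, 6.93 and 6.02 CPM in Diff. hepatocytes, and 82.3, 45.7, 26.0 and 57.8 CPM in mature hepatocytes. The Diff. libraries lay together below all others, and mature hepatocytes spread on both sides of hepatoblasts. Tbx3 was 6.76-fold below hepatoblasts (-2.76 ± 0.30, adjusted p = 4.03e-06) and 8.16-fold below mature hepatocytes (-3.03 ± 0.30, adjusted p = 1.35e-06) in Diff. hepatocytes. Mature hepatocytes against hepatoblasts gave 0.27 ± 0.27 (adjusted p = 0.38), or -0.58 under library totals.

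**Figure D2:**
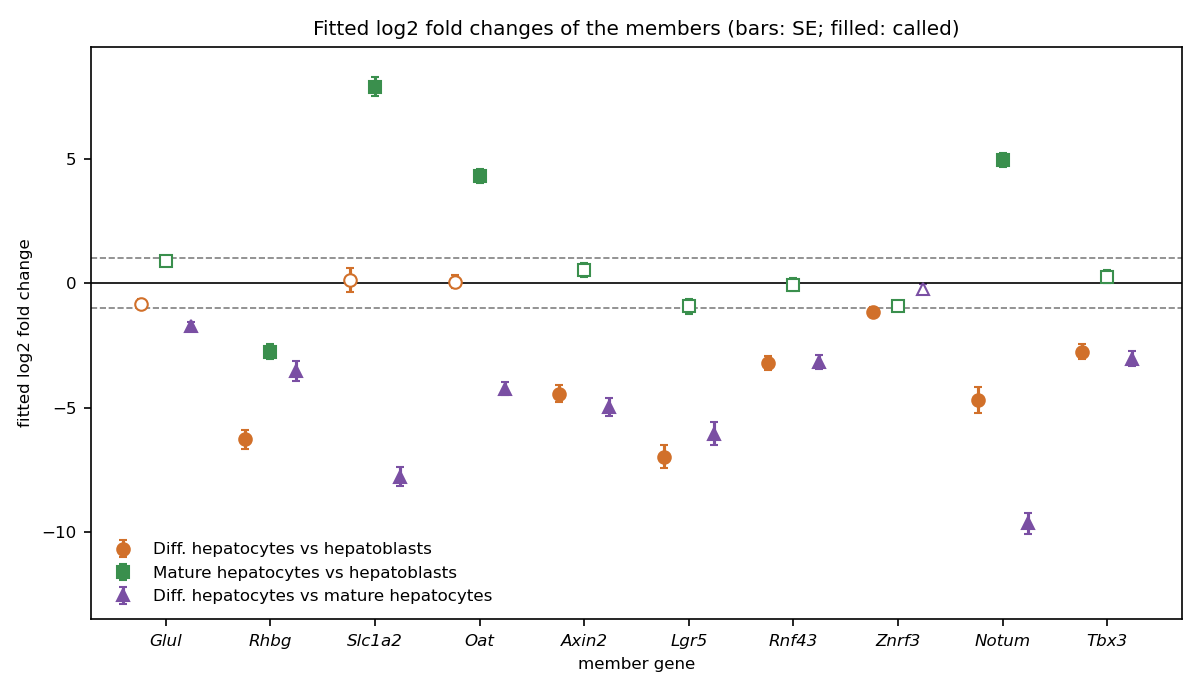
Fitted log2 fold change of each member (x axis) with its standard error in the 3 comparisons, filled where called, with dashed lines at the threshold of 1 in either direction. Filled circles, Diff. hepatocytes against hepatoblasts, run from -1.15 for Znrf3 to -6.97 for Lgr5, and the filled squares above 0, mature hepatocytes against hepatoblasts, are Slc1a2, Oat and Notum.

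Exact permutation of 8 libraries (two-sided, 70 splits) reached its smallest possible p, 0.0286, for 8 members in Diff. hepatocytes against hepatoblasts, 6 in mature hepatocytes against hepatoblasts and 9 in Diff. against mature hepatocytes. The libraries of these members did not overlap between the groups, which was also so for 57.5%, 66.0% and 61.6% of all tested genes. The members above that p in the exact test were Slc1a2 (p = 0.83) and Oat (p = 0.6) in the first comparison. They were Axin2 (p = 0.143), Lgr5 (p = 0.0857), Rnf43 (p = 0.771) and Tbx3 (p = 0.657) in the exact test of the second, and Znrf3 (p = 0.371) in that of the third.

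Genes with the most similar levels over the 12 libraries were sought for Glul, Axin2 and Lgr5 among 13152 genes with a mean of at least 1 CPM, by the root mean square difference in centred log2 CPM. Nearest to Glul were Slc9a3r1 (0.19), Fgfrl1 (0.21) and Mfhas1 (0.21). Axin2 was nearest to Raet1d (0.38), Sp5 (0.39) and Gbp4 (0.49), of which Sp5 is a transcription factor known as a direct Wnt target. For Lgr5 the nearest were Fos (0.48), Tbx3os1 (0.64), a gene antisense to Tbx3, and Lect2 (0.66), a liver-secreted protein that is itself on the list of pericentral genes. Fos had a mean of 384 CPM in hepatoblasts, with 4.55 in Diff. hepatocytes and 181 in mature hepatocytes.

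Beyond the members, 93 further genes of the Wnt pathway were listed and 77 were tested. In Diff. hepatocytes against hepatoblasts 6 rose and 16 fell, so that 22 of 77 were called where 28.9% of all tested genes were. In mature hepatocytes against hepatoblasts 9 rose and 32 fell, where 20.1% of all tested genes rose and 24.7% fell. In Diff. against mature hepatocytes 21 were higher and 13 lower, where 35.8% of all tested genes were called, 20.2% higher and 15.6% lower. Under library totals the list split 5 against 22, 3 against 44 and 34 against 9 in the 3 comparisons. Of the 17779 tested genes 5606, 9927 and 7276 were then called. Of those calls 35.4%, 20.2% and 75.6% were higher in the first group. With a log2 change of 1 as the null of the test, 2 rose and 9 fell in the first comparison. The medians of the 77 log2 fold changes were -0.27, -0.70 and 0.35. With genes at 0 in a group set to their bound, the last 2 medians were -0.65 and 0.33.

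Ligands moved in both directions: of 15 tested ligands and secretion factors, 5 rose and 3 fell in Diff. hepatocytes against hepatoblasts, or 4 and 4 under library totals. Over all tested genes 14.9% rose and 14.0% fell in this comparison. Among the risers, Wnt5a, Wnt7a and Wnt16 had low means in Diff. hepatocytes, of 1.25, 0.583 and 0.929 CPM. Wnt4, a ligand of both canonical and other Wnt responses, was at 1.26, 2.0, 1.78 and 1.59 CPM in hepatoblasts, then 177, 195, 232 and 243 CPM in Diff. hepatocytes, and 0.480, 0.834, 0.992 and 0.621 CPM in mature hepatocytes. Only Diff. hepatocytes held Wnt4 at this level among the 3 groups (against hepatoblasts 6.99 ± 0.18, adjusted p = 2.54e-11, against mature hepatocytes 8.15 ± 0.21, adjusted p = 4.71e-12). Wls, which carries Wnt proteins to the cell surface, rose to 9.81 to 29.0 CPM in Diff. hepatocytes from 4.28 to 7.25 (1.38 ± 0.31, adjusted p = 0.00174). The 7 bile duct markers summed to 27.4 to 36.9 CPM in hepatoblasts, with 114 to 305 in Diff. hepatocytes and 37.3 to 65.9 in mature hepatocytes, where Cldn4 was at 0, and 4 of the 7 rose in Diff. hepatocytes against hepatoblasts. Their part in the level of Wnt4 was not tested.

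Wnt2 and Wnt9b, ligands made by liver endothelial cells, had no count in any Diff. library. Wnt2 had 11, 27, 34 and 22 counts in hepatoblasts and 38, 18, 62 and 55 in mature hepatocytes, at least 22.2-fold and at least 81.1-fold higher than in Diff. hepatocytes, where 3 counts over the group were taken as the floor. Wnt9b had few reads, with 18 counts in all hepatoblast libraries and 39 in all mature ones, at least 4.26-fold and at least 18.3-fold higher. Both genes were called lower in Diff. hepatocytes than in either other group (edgeR adjusted p of 0.00011 and 6.49e-06 for Wnt2, 0.00451 and 0.000118 for Wnt9b). Rspo3, added here after its values were seen because its protein binds Lgr5, was at 2.97 to 5.86 CPM in hepatoblasts, with 2.07 to 2.55 in Diff. hepatocytes and 0.834 to 1.58 in mature hepatocytes. Of the 15 tested ligands and secretion factors, 5 rose and 5 fell in mature hepatocytes against hepatoblasts, or 2 and 5 under library totals. Over all tested genes 20.1% rose and 24.7% fell in this comparison. Wnt5b was above hepatoblasts in mature hepatocytes, at 5.35 to 14.1 CPM against 0.613 to 1.16 (3.36 ± 0.31, adjusted p = 4.28e-07). Rspo1 and Wnt11 were called lower in mature hepatocytes (edgeR adjusted p = 2.81e-05 and 8.29e-06). They had 73 and 162 counts over the hepatoblast libraries and 0 and 3 over the mature ones. The 8 endothelial markers (Pecam1, Kdr, Cdh5, Stab2, Clec4g, Lyve1, Tek and Egfl7) summed to 49.9 to 146 CPM in hepatoblasts, with 8.71 to 15.9 in Diff. hepatocytes and 132 to 234 in mature hepatocytes, with none at 0 in a group. Of these 8 markers 7 fell in Diff. hepatocytes against hepatoblasts and 8 were below mature hepatocytes. Their part in the levels of Wnt2, Wnt9b and the members was not tested.

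**Figure D3:**
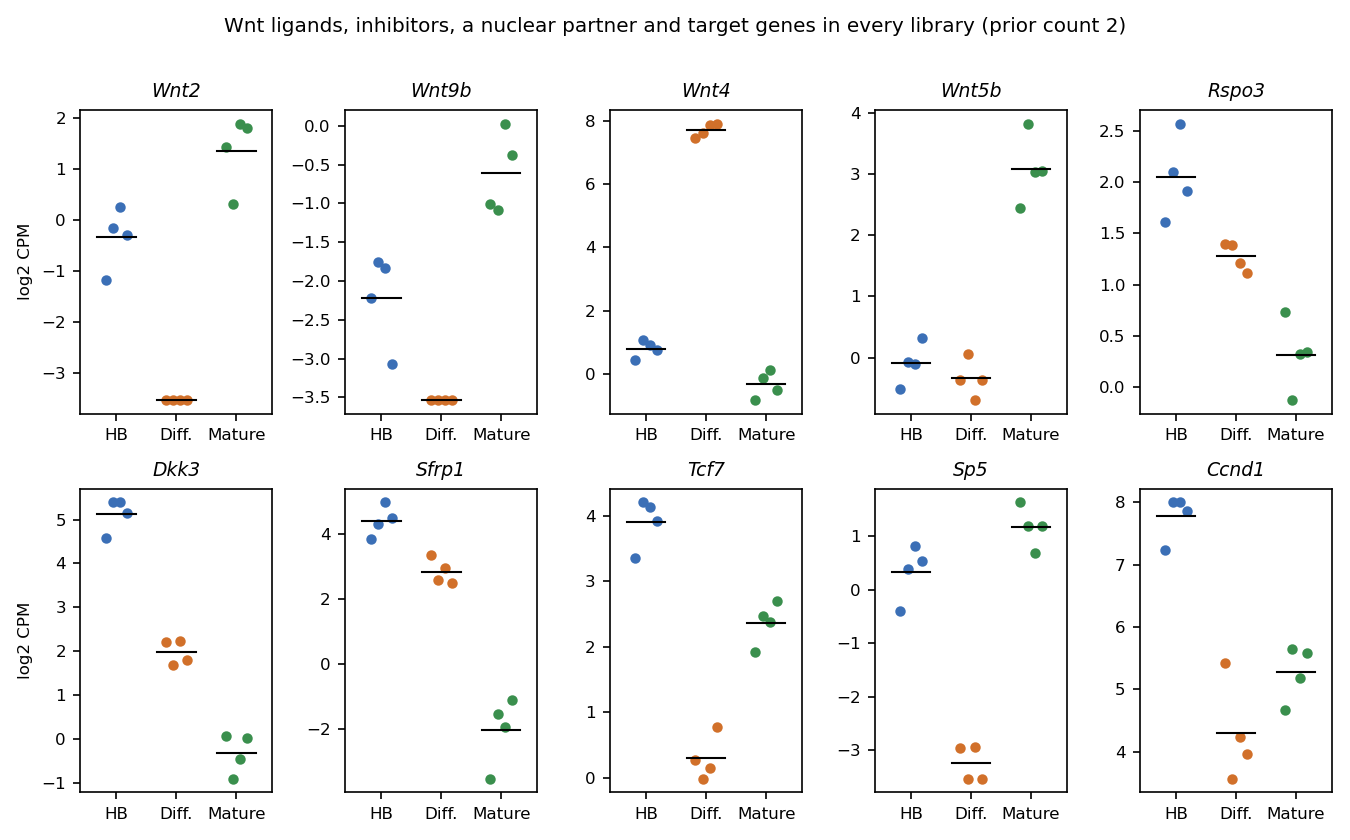
Log2 CPM (prior count 2) of 10 Wnt pathway genes in each library, with the groups along the x axis as hepatoblasts (HB), Diff. hepatocytes (Diff.) and mature hepatocytes, points for libraries, a line at the mean and a y axis of its own in each panel. Wnt2 and Wnt9b lie at the bottom of the scale in Diff. hepatocytes, where they had 0 counts, and Wnt4 lies far above the other groups there.

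Secreted and membrane inhibitors were called lower in mature hepatocytes than in hepatoblasts for most of the list: of 12 tested, 10 fell and none rose in mature hepatocytes against hepatoblasts, while 5 fell and 1 rose in Diff. hepatocytes. All tested genes fell in 24.7% and 14.0% of cases in these comparisons. Dkk3, a dickkopf family member, was at 23.99, 41.9, 41.8 and 35.1 CPM in hepatoblasts, then 4.54, 3.14, 4.62 and 3.40 CPM in Diff. hepatocytes and 0.960, 0.449, 0.642 and 0.931 CPM in mature hepatocytes (Diff. against hepatoblasts -3.18 ± 0.22, adjusted p = 5.32e-08). Sfrp1, a decoy for Wnt proteins, had the same order at 14.1 to 31.1, 5.47 to 9.99 and 0 to 0.372 CPM (Diff. against hepatoblasts -1.58 ± 0.29, adjusted p = 0.000395). Trabd2b, a protease that cleaves Wnt proteins, was the inhibitor that rose in Diff. hepatocytes, to 2.61 to 6.01 CPM from 0.967 to 2.20 (1.48 ± 0.34, adjusted p = 0.00224). Kremen1, a receptor for dickkopf proteins, was at 12.6 to 16.7 CPM in hepatoblasts, with 14.7 to 16.4 in Diff. hepatocytes and 24.9 to 30.0 in mature hepatocytes, with no call. The 9 mesenchymal markers summed to 1277 to 2309 CPM in hepatoblasts, with 1338 to 3013 in Diff. hepatocytes and 64.1 to 91.4 in mature hepatocytes, with none at 0 in a group and 8 of 9 lower in mature hepatocytes than in hepatoblasts. Their part in the inhibitor levels was not tested.

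Among receptors and intracellular components, 2 of 16 receptors, 1 of 14 genes of the destruction complex and 2 of 13 nuclear partners were called in Diff. hepatocytes against hepatoblasts, and these 5 were lower. The share over all tested genes was 28.9% called in this comparison, with 14.0% called lower. Under library totals 3 genes of each of these roles were called lower. The 5 were Fzd7, a receptor, at 37.0 to 59.6 CPM in hepatoblasts, then 10.3 to 14.8 in Diff. hepatocytes (-2.12 ± 0.23, adjusted p = 4.69e-06), the co-receptor Lrp5 (-1.21 ± 0.21, adjusted p = 0.000232), the adaptor Dvl2 (-1.24 ± 0.13, adjusted p = 3.89e-06), the corepressor Tle2 (-1.51 ± 0.22, adjusted p = 6.46e-05) and Tcf7. Tcf7, which encodes TCF1, a DNA-binding partner of beta-catenin, was at 10.2, 18.3, 17.5 and 15 CPM in hepatoblasts, then 1.12, 0.904, 1.02 and 1.63 CPM in Diff. hepatocytes and 3.70, 5.46, 5.08 and 6.39 CPM in mature hepatocytes (Diff. against hepatoblasts -3.70 ± 0.25, adjusted p = 5.65e-08). The groups did not overlap, and Diff. hepatocytes were the lowest.

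Of 7 further target genes 3 fell and none rose in Diff. hepatocytes against hepatoblasts, where 14.0% of all tested genes fell. Against mature hepatocytes only Sp5 was called, lower in Diff. hepatocytes, and the median log2 fold change of the 7 was 0.17. Under library totals 3 of the 7 were higher and 1 lower in that comparison. Sp5 had 21, 41, 52 and 41 counts in hepatoblasts, 1, 0, 1 and 0 in Diff. hepatocytes, and 44, 34, 26 and 35 in mature hepatocytes, a ratio of hepatoblasts to Diff. hepatocytes of 55.0 (95% exact interval 14.98 to 458) and of mature to Diff. hepatocytes of 97.7 (26.5 to 815). Ccnd1, which encodes cyclin D1, was at 151 to 256 CPM in hepatoblasts, with 11.8 to 42.8 in Diff. hepatocytes and 25.4 to 50.2 in mature hepatocytes (Diff. against hepatoblasts -3.33 ± 0.37, adjusted p = 5.23e-06). Tnfrsf19 fell from 20.7 to 39.6 CPM to 2.40 to 3.35 in Diff. hepatocytes (-3.56 ± 0.36, adjusted p = 2.15e-06). Ccnd1 and Tnfrsf19 were also lower in mature hepatocytes than in hepatoblasts (-2.49 ± 0.36 and -2.86 ± 0.35, adjusted p = 3.06e-05 and 6.48e-06), whereas Sp5 was not called there (0.84 ± 0.33, adjusted p = 0.037).

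Other pericentral genes of the hepatocyte were called in both directions in culture, and most were lower there than in mature hepatocytes. Of 23 genes tested, 12 rose and 5 fell in Diff. hepatocytes against hepatoblasts, 19 rose and 1 fell in mature hepatocytes against hepatoblasts, and 21 were lower and none higher in Diff. than in mature hepatocytes. Over all tested genes 14.9% rose and 14.0% fell in the first of these comparisons, 20.1% rose and 24.7% fell in the second, and 15.6% were lower in the third. The medians of their log2 fold changes were 1.44, 6.48 and -3.39. Cyp2e1, the ethanol-inducible cytochrome, was at 2.52 to 3.05 CPM in hepatoblasts, overlapping with 2.31 to 4.24 in Diff. hepatocytes (0.20 ± 0.25, adjusted p = 0.515), and at 4287 to 9050.4 CPM in mature hepatocytes. Cyp1a2, which oxidises caffeine, was at 0.388 to 0.742 CPM in hepatoblasts and 0.778 to 0.986 in Diff. hepatocytes, with no call. In mature hepatocytes Cyp1a2 was at 909 to 1269 CPM. Slco1b2, an organic anion carrier, rose to 87.0 to 96.8 CPM in Diff. hepatocytes from 2.33 to 5.63 (4.71 ± 0.24, adjusted p = 5.03e-09). Lect2 fell to 0.689 to 2.94 CPM from 74.3 to 123 (-6.16 ± 0.33, adjusted p = 7.35e-09), while mature hepatocytes held 78.3 to 102 CPM, with no call against hepatoblasts (-0.29 ± 0.25, adjusted p = 0.305).

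Periportal genes, the opposite end of the lobule, were also counted. Of 21 tested, 13 rose and 1 fell in Diff. hepatocytes against hepatoblasts, and 18 rose and 2 fell in mature hepatocytes against hepatoblasts. Against mature hepatocytes, 2 were higher and 14 lower in Diff. hepatocytes, or 4 and 13 under library totals. The shares over all tested genes given for the pericentral list hold here too, with 20.2% higher in the last comparison. The medians of their log2 fold changes were 2.98, 5.90 and -2.32. Cps1, which brings ammonia into the urea cycle, was at 16.7 to 29.9 CPM in hepatoblasts, with 5298 to 6190.0 in Diff. hepatocytes and 5264 to 6850.2 in mature hepatocytes, and Diff. and mature hepatocytes overlapped (-0.04 ± 0.17, adjusted p = 0.866). Gls2, the liver glutaminase, which releases ammonia from glutamine and so runs counter to Glul, was at 8.12 to 13.5, 126 to 182 and 438 to 679 CPM (Diff. against hepatoblasts 3.95 ± 0.20, adjusted p = 5.03e-09). Etnppl (8.90 ± 0.33, adjusted p = 3.07e-10) and G6pc, the glucose-releasing phosphatase (7.50 ± 0.29, adjusted p = 4.42e-10), also rose in Diff. hepatocytes. Cyp2f2, by contrast, reached 5.88 to 6.51 CPM in Diff. hepatocytes where mature hepatocytes held 1864 to 2067 CPM. A difference between the pericentral and the periportal list was not tested.

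**Figure D4:**
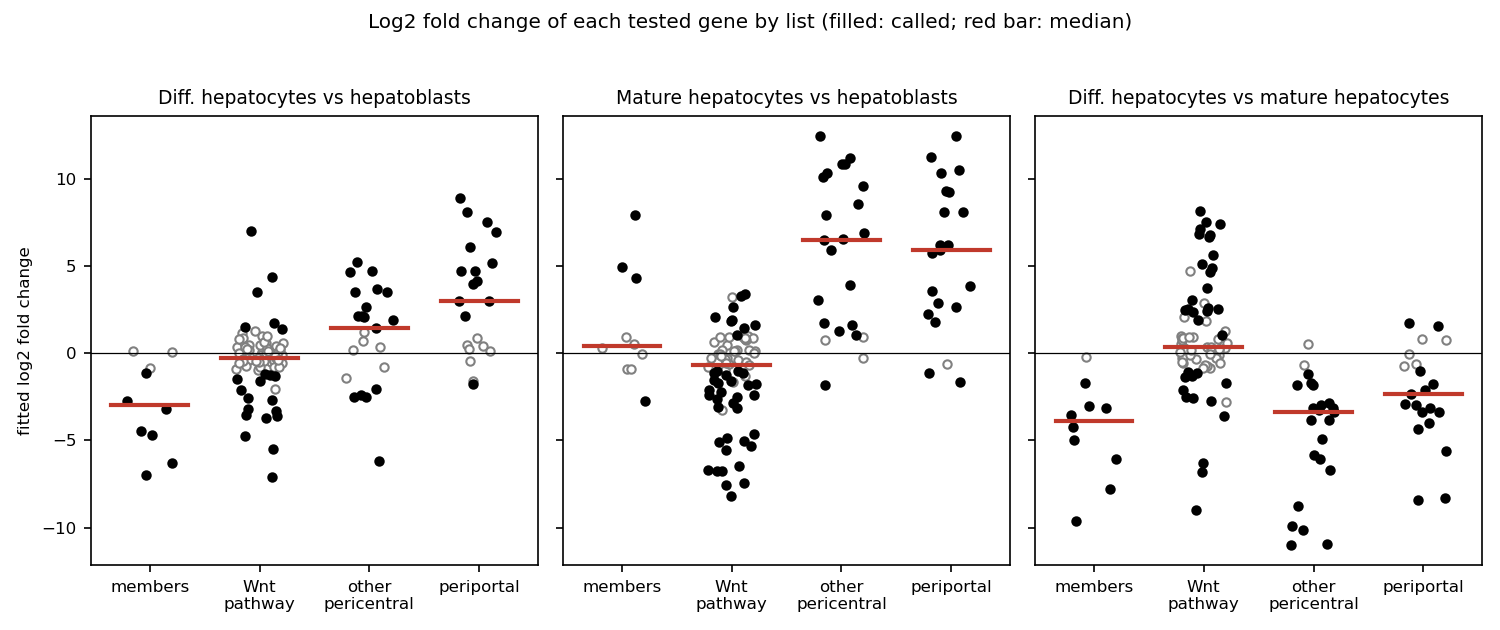
Fitted log2 fold change (y axis) of each tested gene in 4 lists (x axis) for the 3 comparisons, filled where called, with a red bar at the median of the list; fitted values of genes with no counts in a group depend on the prior count. In Diff. hepatocytes against hepatoblasts the medians are -2.98 for the members, -0.27 for the Wnt pathway, 1.44 for other pericentral and 2.98 for periportal genes.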

How the data were processed

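Poly(A) RNA of the 12 libraries was sequenced as 75-base single reads from strand-specific libraries. The files hold raw counts for each gene, as deposited. The authors checked reads with FastQC 0.11.2, aligned them with STAR 2.5.2b to GRCm38 and took gene counts from the same tool on Ensembl release 92. Symbols, positions and exon lengths came from GENCODE M21 (53620 of 53715 identifiers matched, and all 212 symbols of the lists). Libraries were grouped by their labels, and no duplicated library was found. The members and gene lists were chosen with earlier results of these data known.

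A gene was tested if any library held over 10 counts of it, in R 4.3.3 with edgeR 4.0.16 (TMM, quasi-likelihood, group as the only term, 12 libraries), Benjamini-Hochberg adjusted over all tested genes. CPM are counts scaled by library size and TMM factor, and SE are those of the fitted log2 fold change. Calls needed an adjusted p below 0.01 together with a log2 fold change beyond 1 in size. The fit was tested on simulated data. DESeq2 1.42.0 was among the alternatives. Beyond the members, genes were drawn from up to 3 called genes per list or role with the largest change in each comparison. Not all of those are named in the text. Ligands and inhibitors reaching a mean of 10 CPM, Gls2, Cyp2e1 and Cps1 were added. A few others, among them Rspo3, Wnt5a, Wnt7a and Wnt16, were named after their values were seen. An edgeR p sets the difference between groups against the spread between replicates, estimated over the 12 libraries together. These are biological replicates per the labels, and those of embryonic cells come from pools of embryos.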

Additional observations from a re-analysis of the deposited data

Results flagged for a closer look

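Hepatoblasts replicate 1 stood apart from the other 3 hepatoblast libraries in 4 members. By Dixon's test at the 95% level it was the lowest for Rhbg (8.32 CPM), Znrf3 (31.8 CPM) and Tbx3 (28.0 CPM) and the highest for Oat (66.2 CPM). Of 36 groups of libraries tested 4 were flagged, where chance gives about 1 in 20, or 1.8. The same library had the largest sums of erythroid (2459 CPM), macrophage (320 CPM) and endothelial markers (146 CPM) of its group, and the part of these in the flagged levels was not tested. Without it, 7 members were still called lower in Diff. hepatocytes than in hepatoblasts, and in mature hepatocytes against hepatoblasts 6 were called in place of 4, Lgr5 (-1.11) and Znrf3 (-1.04) being the added calls.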

How the results depend on the processing

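Of 252 counts of called members and listed genes under other settings, 247 were within 1.5 times the count reported. The others were for the Wnt pathway list and the members. Under glmTreat, which tests against a log2 change of 1, 11 of the Wnt list were called in Diff. hepatocytes against hepatoblasts. With calls made on an adjusted p of 0.05 alone, 48, 63 and 61 of the Wnt list were called in the 3 comparisons. In that setting 7 members were called in mature hepatocytes against hepatoblasts. The share of all tested genes called in these settings, with 1 library left out or with a block is not given here. Under library totals the log2 fold changes of Slc1a2 (-0.18) and Oat (-0.28) in Diff. hepatocytes against hepatoblasts, Axin2 (-0.30) and Tbx3 (-0.58) in mature hepatocytes against hepatoblasts and Znrf3 (0.31) in Diff. against mature hepatocytes changed sign, as the shift of all genes given above would by construction. None of these was called as reported. Leaving out 1 library changed the sign of Slc1a2 (-0.38 without Diff. hepatocytes replicate 1, range -0.38 to 0.42), Oat (-0.01 without hepatoblasts replicate 2, -0.03 without hepatoblasts replicate 4 or Diff. hepatocytes replicate 1, range -0.03 to 0.29), Rnf43 (0.02 without hepatoblasts replicate 4, 0.05 and 0.11 without mature hepatocytes replicate 1 or 3, range -0.37 to 0.11) and Tbx3 (-0.03 without mature hepatocytes replicate 1, range -0.03 to 0.49), all uncalled. It left 7, 4 to 6 and 9 members called in the 3 comparisons. Glul was called higher in mature hepatocytes than in hepatoblasts without mature hepatocytes replicate 1 (1.05), and Znrf3 lower without mature hepatocytes replicate 4 (-1.12). The fit with the replicate number as a block called 7, 4 and 9 members. Same-numbered libraries of hepatoblasts and Diff. hepatocytes deviated together in 3 of 4 pairs (correlations of 0.32, 0.25 and 0.18, but -0.06 for replicate 2). Of the 4 hepatoblast libraries 2 correlated best with the Diff. library of their own number. Pairs with mature hepatocytes had correlations of -0.08 to 0.09. The samples were not treated as paired, and these values do not settle whether same-numbered hepatoblasts and Diff. hepatocytes shared an isolation. Levels at 0 to 5 counts per library, those of Rhbg, Lgr5 and Notum in Diff. hepatocytes, are limited by depth.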
